A study of Homo sapiens with 42 samples.

Results

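The 3198 regions described here are named long non-coding RNAs (lncRNAs) whose annotated span holds no annotated small RNA. They were chosen from 175946 annotated rows of a small RNA count table: rows typed only as lncRNA that carry a gene symbol and overlap, on either strand, no row of any other type, with the longest row kept per symbol and MALAT1 and NEAT1 left out. Of 3825 symbols on 3895 named lncRNA rows, 3255 rows were free of other types. The row is the transcript's whole span on the genome, introns included, and ran from 199 to 590868 bases with a median of 8110.5.

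The study compared knockouts of POLR3G and POLR3GL, alternative subunits of RNA polymerase III, in the monocytic leukaemia line THP-1, with a knockdown of POLR3G in HEK293T, a line of embryonic kidney origin. The table holds 30 libraries in 10 groups of 3: A4, A7, E4 and G8, all labelled THP-1, and a group labelled mock and HEK293T, given a control antisense oligonucleotide (ASO) at 200 nM. Each was sequenced with end repair by Antarctic phosphatase and polynucleotide kinase (plus PNK) and without it (minus PNK). The labels do not say which gene A4, A7, E4 or G8 lacks, whether each is 1 clone, or that replicates are separate cultures, so p-values measure only the spread between libraries. The targeted genes' own transcripts, the THP-1 libraries labelled con and the libraries given the POLR3G oligonucleotide, 12 in all, were not analysed here.

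Most lncRNAs are made by RNA polymerase II, capped, spliced and polyadenylated like messenger RNA, and many start from, or run antisense to, a protein-coding gene. They are far longer than a small RNA library accepts, so what such a library can read of them is fragments. Adapter ligation in these kits needs a 5′ phosphate and a 3′ hydroxyl. Polynucleotide kinase adds the first and removes 3′ phosphates, so fragments with other ends can enter a library after the treatment.

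Mature MIR142, MIR223 and MIR155 mark blood cells, and minus PNK MIR142 averaged 1883 ± 454 CPM (counts scaled to library size) for A4, 3124 ± 699 for A7, 2188 ± 137 for E4 and 2726 ± 891 for mock (SD, n = 3), so this marker goes against the HEK293T label of mock. In G8 it was at 102, 115 and 2443 CPM, and libraries 1 and 2 stood apart from library 3 in MIR223 and MIR155 too. The table used for the fits held 6848866 to 9678640 counts per library plus PNK and 10125688 to 13795822 minus PNK, of which the named lncRNAs took 19007 to 32180 counts (0.269% to 0.408%) plus PNK and 1234 to 2473 (0.0115% to 0.0209%) minus PNK. Between 1071 and 1346 of them had a count in a plus PNK library, 307 to 646 had one in a minus PNK library, and 757 were at 0 in all 30. In mixed RNA, fewer cells carrying a transcript and less of it per cell cannot be told apart.

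The rows differed in what else lies inside them. In the GENCODE v29 annotation, 829 rows (25.9%) contained an exon of a protein-coding gene, 221 held an exon of a pseudogene but of no coding gene, and 2148 (67.2%) held neither. The first kind took 61.4% of the 364021 counts plus PNK, the second 18.4% and the third 20.2%. Minus PNK, where the total was 28000 counts, the shares were 39.3%, 9.23% and 51.4%. Rows named as antisense to a gene, 1037 in number with a coding exon in 690, took 60.0% of the plus PNK counts, and the 1668 rows named as intergenic (LINC) took 27.0%. How the counting treated strand is not known from the labels or the table, so reads of an antisense lncRNA and of the gene opposite cannot be told apart.

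Sequences from the GENCODE v29 transcripts (GRCh38) show what such rows hold. RPL39P3, a processed pseudogene of the ribosomal protein gene RPL39, lies inside the row of OOEP-AS1 and matches the RPL39 coding sequence at 153 of 153 bases. RPL23AP42, inside LINC02067, matches RPL23A at 442 of 444 aligned bases. RPL7AP23, inside LINC02008, matches RPL7A at 636 of 792. Each is printed 5′ to 3′ on its own strand, with capitals at the bases that differ between a copy and its parent. The first 90 bases of RPL39P3 (chr6:73373174-73373263, minus strand) and a stretch of RPL23AP42 (chr3:161429484-161429573, minus strand) hold no capitals, because their parents read the same, while the RPL7AP23 stretch (chr3:82320188-82320277, minus strand) differs from RPL7A at 14 of 90 bases.
RPL39P3 in OOEP-AS1: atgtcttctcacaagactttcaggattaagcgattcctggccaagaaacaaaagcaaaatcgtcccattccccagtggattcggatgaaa
RPL23AP42 in LINC02067: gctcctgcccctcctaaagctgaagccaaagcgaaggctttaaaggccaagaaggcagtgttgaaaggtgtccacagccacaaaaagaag
RPL7AP23 in LINC02008: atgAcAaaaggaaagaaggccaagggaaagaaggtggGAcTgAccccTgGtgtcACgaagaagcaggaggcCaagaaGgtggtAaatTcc
RPL7A coding sequence: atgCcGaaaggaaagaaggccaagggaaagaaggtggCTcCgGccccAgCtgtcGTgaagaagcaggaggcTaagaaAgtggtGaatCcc

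Some of the rows with many reads per length hold coding bases directly. All 628 bases of the FOXD1-AS1 row, the highest, lie in exon sequence of FOXD1, though only 17 are among its 1395 coding bases. The PCNA-AS1 row, 384 bases long, lies wholly in exon sequence of PCNA, the sliding clamp of DNA replication. It contains 213 of the 783 coding bases of PCNA, and the MIF-AS1 row contains all 345 coding bases of MIF, a cytokine. Their first 120 coding bases are shown with the start codon in capitals, from chr20:5119679-5119798 (minus strand) for PCNA and, across a splice junction, from chr22:23894475-23894783 (plus strand) for MIF.
PCNA in the PCNA-AS1 row: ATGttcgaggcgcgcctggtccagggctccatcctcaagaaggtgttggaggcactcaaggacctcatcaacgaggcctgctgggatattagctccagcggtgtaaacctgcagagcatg
MIF in the MIF-AS1 row: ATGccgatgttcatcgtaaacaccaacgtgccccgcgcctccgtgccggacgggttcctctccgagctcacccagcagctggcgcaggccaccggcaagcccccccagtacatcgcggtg

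Per length, FOXD1-AS1, antisense to the forkhead gene FOXD1, was the highest of all members at 41.3 CPM per kb over the 15 plus PNK libraries. PCNA-AS1 (9.53 CPM per kb), THRIL (8.41) and MIF-AS1 (8.26) followed, then LINC01388 (5.99), FGD5-AS1 (5.34), OIP5-AS1 (5.15), TUG1 (4.99) and CHMP1B-AS1 (4.96). THRIL is a lncRNA described in THP-1 cells as a regulator of TNF. All 1981 bases of its row lie in exon sequence of BRI3BP, so its reads and those of BRI3BP cannot be told apart. The CHMP1B-AS1 row, 1338 bases long, likewise lies wholly in exon sequence of CHMP1B. Of the 15 highest, only LINC01388 and TUG1 have neither a coding nor a pseudogene exon in their rows. EHMT2-AS1 also ranked there, but its row lies on chromosome 8 and RefSeq places that symbol on chromosome 6, 1 of 9 such members, so the name is uncertain.

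FOXD1-AS1 was at 28.4, 22.1 and 38.6 CPM in A4, 21.2, 28.4 and 17.9 in A7, 20.4, 19 and 25.8 in E4, 21.9, 26.7 and 27.7 in G8, and 28.4, 27.7 and 34.4 in mock. The groups overlapped, and no difference among the THP-1 groups was called (edgeR adjusted p = 0.331). TUG1, a broadly expressed lncRNA studied for roles at chromatin, was at 51.5, 52.4 and 50.0 CPM in A4, 59.1, 62.4 and 57.9 in A7, 49.9, 53.4 and 48.2 in E4, 51.8, 55.5 and 47.5 in G8, and 37.3, 43.1 and 42.4 in mock. Its A7 libraries were the highest and its mock libraries the lowest, and the test among the THP-1 groups was not passed (edgeR adjusted p = 0.266). OIP5-AS1, the mammalian Cyrano, which is known to trigger decay of miR-7, had the most counts of any member, 13469 plus PNK or 3.70% of the total. It ran from 84.8 to 133 CPM across the THP-1 libraries with no called difference (edgeR adjusted p = 0.223).

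The table also lists shorter rows nested in the members, and since 1 read adds to each row that it overlaps, these show where in a member its reads lie. For each member with 100 or more counts plus PNK, the longest nested row that holds no coding or pseudogene exon was compared, per length, with the whole member. Among members with a coding exon, 117 of 270 had such a row, and its density was a median 0.425 times that of the member, under 1 in 87. Among members with neither kind of exon, 101 of 126 had such a row, at a median of 0.977. In these every nested row within the length limits qualified, so the row taken can be most of the member, which draws its ratio towards 1. Their median is therefore not like for like with that of the coding-exon members. The 40 of 65 with a pseudogene exon only had a median of 0.894 and a wide spread, with the lower quartile at 0.0643 and the upper at 1.30.

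**Figure D1:**
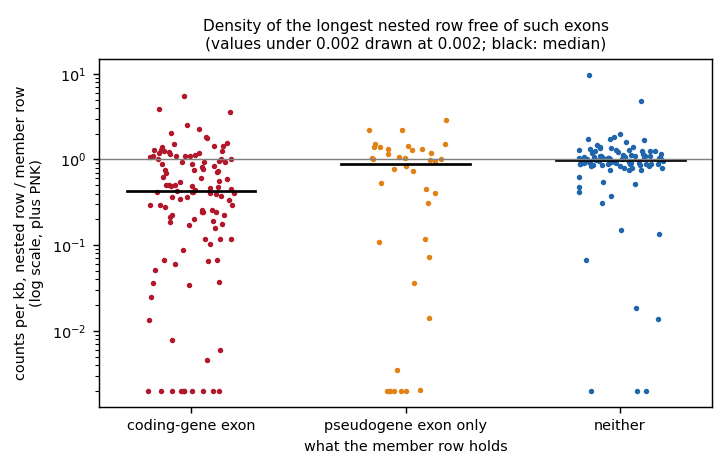
Counts per kb of the longest nested row free of coding and pseudogene exons, divided by counts per kb of the member row (log axis, plus PNK libraries summed), for members with a coding-gene exon, a pseudogene exon only, or neither; each point is a member and black lines are medians. The coding-exon members sit mostly below 1 (median 0.425), while those with neither, where the row taken can be most of the member, cluster around it (median 0.977).

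Single loci went both ways. In LINC02067 a nested row of 502 bases around RPL23AP42 held 99.9% of 5878 counts. In LINC01709, which has RPSAP19 at its end, a copy of the ribosomal protein gene RPSA, an exon-free stretch of 87832 bases held 7 of 5774 counts. The SLC7A11-AS1 row, antisense to the cystine transporter gene SLC7A11, had 2 of 2457 counts in an exon-free stretch of 41706 bases and 99.0% in a row of 14608 bases that holds a coding or pseudogene exon.

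In other members the reads lay outside such exons. In OIP5-AS1 an exon-free row of 8661 bases at the 3′ end, 38.4% of the span, held 97.5% of the counts, and in FGD5-AS1 an exon-free row held 99.7%. LINC02008 had 12811 counts over 477534 bases, and the 1108-base row at RPL7AP23, which differs more from its parent than the other copies shown, held 20 of them (0.156%). LINC00333, a span of 466167 bases, had 4202 counts, of which an exon-free nested row covering 38.8% of the length held 53.7%.

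**Figure D2:**
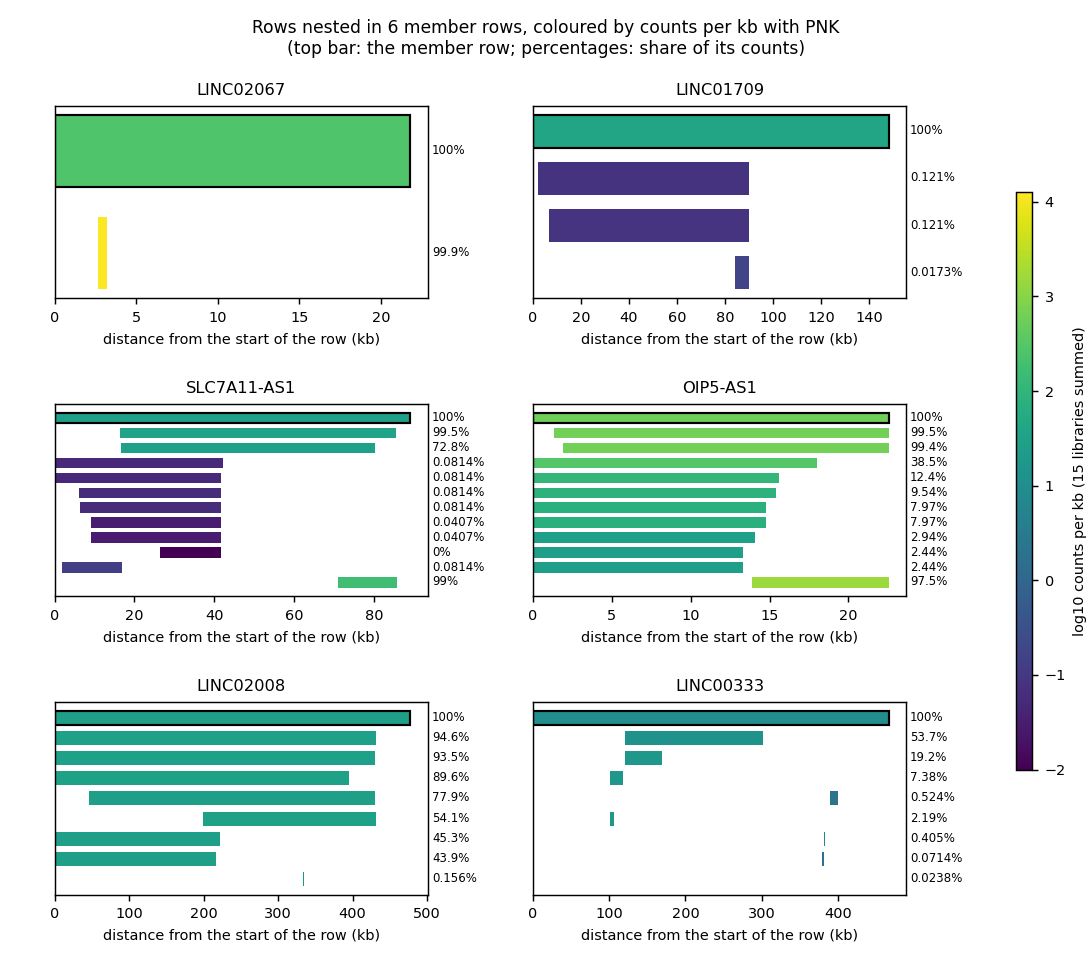
Rows nested in 6 member rows (at most the 11 longest each), drawn by distance from the start of the member row in kb and coloured by counts per kb on a log10 scale over the 15 plus PNK libraries; the outlined top bar is the member and the percentage is the share of its counts. LINC02067, LINC01709 and SLC7A11-AS1 have long stretches with almost no counts, whereas LINC02008 and LINC00333 are covered along their length.

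Summed levels of the rows with neither kind of exon were 785 ± 95.3 CPM in A4, 576 ± 5.96 in A7, 536 ± 10.1 in E4, 711 ± 19.3 in G8 and 616 ± 25.8 in mock (SD, n = 3). The A4 and G8 libraries did not overlap those of A7 and E4 on this scale, where library sizes are adjusted by trimmed means (TMM). Scaled to library totals alone the ranges were 578 to 726 in A4, 556 to 654 in A7, 497 to 546 in E4, 591 to 824 in G8 and 687 to 799 in mock, and A4 and G8 both overlapped A7. Rows with a coding exon moved less, at 2007 ± 7.56 CPM in A4, 1894 ± 35.5 in A7, 1858 ± 9.13 in E4, 2001 ± 66.4 in G8 and 1966 ± 46.8 in mock. Members that overlap each other, 202 in all, count shared reads more than once in these sums.

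**Figure D3:**
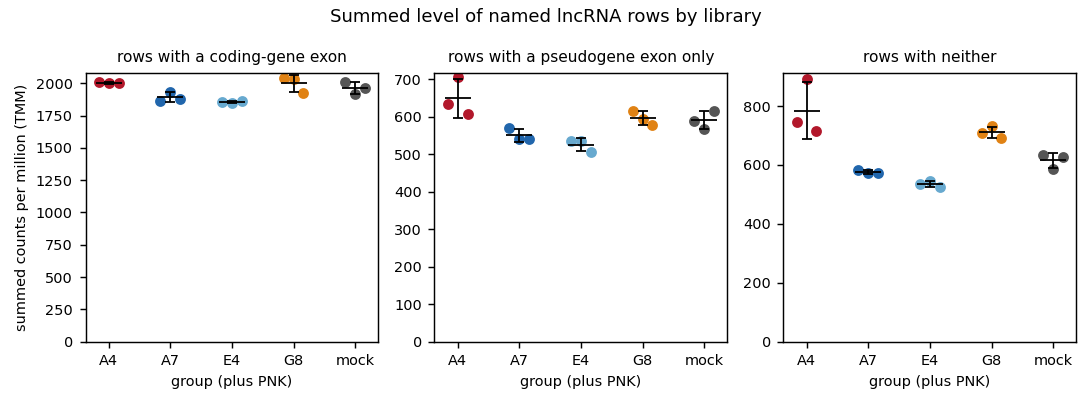
Summed CPM (TMM-scaled) of the named lncRNA rows in each plus PNK library, by what the row holds; points are libraries, bars the mean and SD of 3. In rows with neither kind of exon, A4 (785 ± 95.3) and G8 (711 ± 19.3) lie above A7 (576 ± 5.96) and E4 (536 ± 10.1), and 1 A4 library is higher than the rest.

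An F test over the 12 THP-1 libraries plus PNK asked which members differ among A4, A7, E4 and G8. A member entered it only with enough counts (filterByExpr), which 419 of 3198 had, 243 with a coding exon, 63 with a pseudogene exon only and 113 with neither. Of these, 134 were called at an edgeR adjusted p under 0.05, against a background of 27.4% of all features tested. By content, 61 of 243, 25 of 63 and 48 of 113 were called, and of the 20 tested rows of 100 kb or more with neither kind of exon, 14 were. The shares were not tested against each other. Without G8 libraries 1 and 2, 100 of 531 members were called (18.8%, background 19.6%), so the members' share was then below the background.

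The widest differences belonged to members that were high in A4 and low in A7 and E4. DIRC3, named for a breakpoint in renal carcinoma, was at 6.93, 9.94 and 7.16 CPM in A4, 1.2, 0.767 and 0.467 in A7, 0.693, 0.643 and 0.399 in E4, 5.78, 3.69 and 5.83 in G8, and 3.80, 4.20 and 3.85 in mock. A4 stood highest, G8 and mock overlapped, and no A7 or E4 library reached any of the others. The log2 difference was 3.27 (SE 0.32) for A4 minus A7 (edgeR adjusted p = 2.41e-05) and 3.74 (SE 0.35) for A4 minus E4 (edgeR adjusted p = 1.32e-05).

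VCAN-AS1, antisense to versican, an extracellular matrix proteoglycan, was at 11.8, 11.5 and 10.1 CPM in A4, 2, 1.02 and 1.52 in A7, 1.39, 1.8 and 2 in E4, 4.76, 5.20 and 4.06 in G8, and 4.72, 3.25 and 3.51 in mock. A4 stood above every other library, and the row holds an exon of VCAN. It was 2.86 (SE 0.23) higher on the log2 scale in A4 than in A7 and 1.27 (SE 0.20) higher than in G8 (edgeR adjusted p = 2.94e-06 and 0.000832). LINC02100, an intergenic row with neither kind of exon, was at 8.15, 10.8 and 10.3 CPM in A4, 2.67, 2.05 and 2.22 in A7, 1.53, 2.44 and 2.39 in E4, 2.89, 1.34 and 2.40 in G8, and 4.98, 4.78 and 2.38 in mock. A4 was again above all others, by 2.04 (SE 0.25) on the log2 scale over A7, 2.17 (SE 0.26) over E4 and 2.11 (SE 0.26) over G8 (edgeR adjusted p = 0.000148, 0.000116 and 0.000134).

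SLC7A11-AS1 was at 41.8, 30.7 and 40.5 CPM in A4, 18, 16.5 and 14.1 in A7, 16.4, 15.3 and 15.8 in E4, 10.7, 12.2 and 9.48 in G8, and 28, 24.6 and 26.4 in mock. Every A4 library was above every mock library, and every G8 library was below all others. The A4 minus G8 difference was 1.80 on the log2 scale (SE 0.16, edgeR adjusted p = 7.21e-06) and 1.98 without G8 libraries 1 and 2 (edgeR adjusted p = 0.000432). LINC01876, LINC02241, LINC01322, LINC01701, NIPBL-DT and DPH6-DT also had their A4 libraries above all of A7 and E4. NIPBL-DT starts divergently from NIPBL, the gene of the cohesin loader, and averaged 12.5 ± 1.00 CPM for A4, 3.66 ± 0.57 for A7, 4.01 ± 1.39 for E4 and 6.17 ± 1.35 for G8 (SD, n = 3; edgeR adjusted p = 0.000301).

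Other rows were also high in A4. FRY-AS1, antisense to the furry homologue gene FRY and holding one of its exons, was at 6.7, 6.68 and 5.24 CPM in A4, 1.73, 1.41 and 1.4 in A7, 2.22, 0.772 and 0.532 in E4, 5.78, 4.87 and 4.9 in G8, and 3.01, 3.06 and 4.65 in mock. A4 and G8 overlapped and lay above every A7 and E4 library, by 2.02 (SE 0.33) on the log2 scale for A4 minus A7 (edgeR adjusted p = 0.00127) and -2.13 (SE 0.36) for E4 minus G8 (edgeR adjusted p = 0.00182). LINC01876, a span of 234403 bases on chromosome 2 with a pseudogene exon, was at 11.5, 13.5 and 10.1 CPM in A4, 2.93, 2.43 and 3.73 in A7, 2.91, 2.83 and 3.99 in E4, 4.42, 7.22 and 3.13 in G8, and 4.85, 3.54 and 3.74 in mock, with A4 above all others. DPH6-DT, divergent from the diphthamide synthesis gene DPH6, was at 16.2, 17.7 and 12.1 CPM in A4, 5.6, 7.16 and 5.13 in A7, 5.27, 3.6 and 4.92 in E4, 13.9, 10.7 and 10.3 in G8, and 8.65, 8.5 and 11.1 in mock, so that A4 and G8 overlapped above A7 and E4.

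Another set was high in G8. LINC00977, an intergenic row with neither kind of exon, was at 7.26, 7.88 and 6.64 CPM in A4, 9.74, 9.08 and 10.2 in A7, 7.49, 9.65 and 7.72 in E4, 24.8, 27 and 24.5 in G8, and 7.08, 7.84 and 6.80 in mock. G8 libraries 1 and 2 did not stand apart from library 3 here. A4 was lower than G8 by a log2 difference of -1.81 (SE 0.14, edgeR adjusted p = 2.59e-06), which with G8 library 3 alone was -1.76 (edgeR adjusted p = 0.000197). GAS6-AS1, antisense to GAS6, the ligand of the TAM receptor kinases, was at 7.15, 7.03 and 8.91 CPM in A4, 13.9, 12.7 and 12.3 in A7, 8.88, 10.3 and 10.4 in E4, 32.8, 25.5 and 25.3 in G8, and 10.6, 9.08 and 9.98 in mock. Its row holds exons of GAS6 and TMEM255B, and again every G8 library was above all others, with an A4 minus G8 log2 difference of -1.86 (SE 0.15, edgeR adjusted p = 3.73e-06). LINC00976 and CNTN4-AS2 were highest in G8 as well, CNTN4-AS2 with 3.69, 4.63 and 3.67 CPM in A4, 1.87, 1.66 and 1.87 in A7, 2.22, 2.96 and 2.53 in E4, 6.63, 7.38 and 7.61 in G8, and 4.45, 2.58 and 4.54 in mock.

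**Figure D4:**
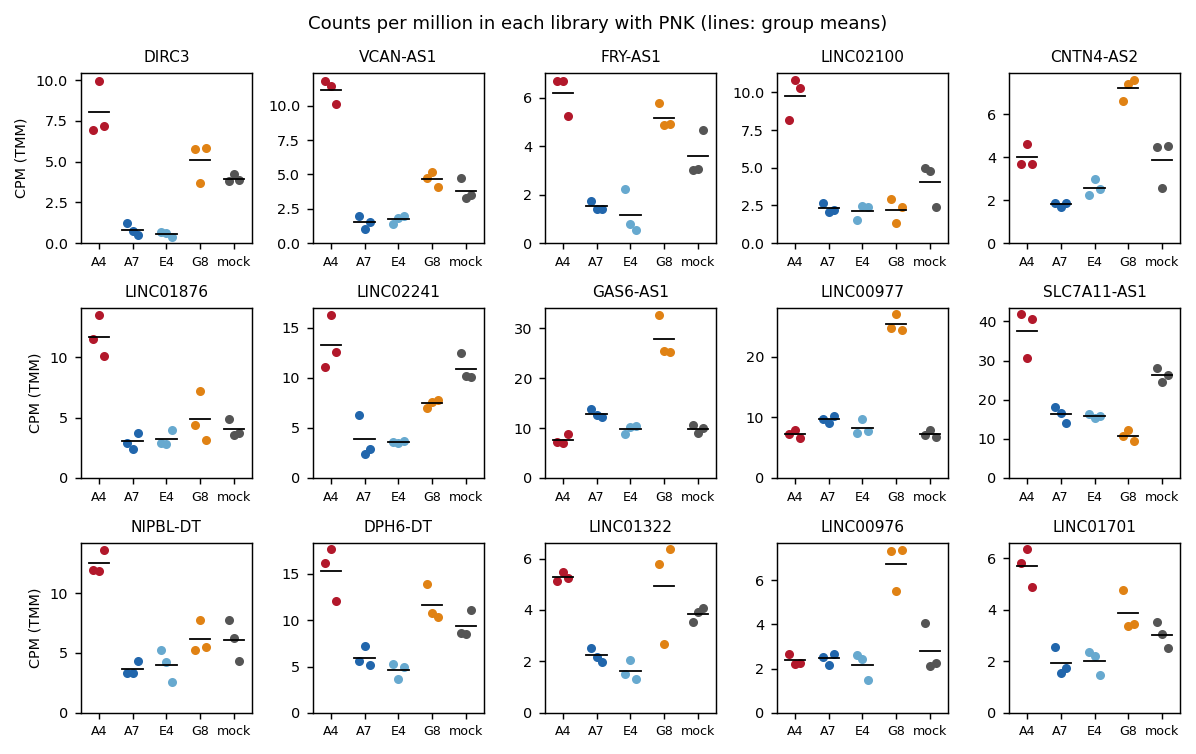
CPM (TMM-scaled) in each plus PNK library for the 15 called members with the widest range between THP-1 group means; points are libraries and lines group means. DIRC3, VCAN-AS1 and LINC02100 are highest in A4 and low in A7 and E4, while GAS6-AS1, LINC00977, LINC00976 and CNTN4-AS2 are highest in G8.

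Fewer members were low in A4. THRIL was at 9.83, 9.94 and 8.91 CPM in A4, 22.1, 19.8 and 20.1 in A7, 20.1, 17.2 and 19.4 in E4, 23.1, 22.5 and 23.5 in G8, and 11.5, 9.84 and 11.8 in mock. A4 and mock overlapped and lay below the other groups, and reads of BRI3BP in this row cannot be told apart from those of THRIL. The log2 difference was -1.13 (SE 0.12) for A4 minus A7, -0.99 (SE 0.12) for A4 minus E4 and -1.27 (SE 0.12) for A4 minus G8 (edgeR adjusted p = 5.54e-05, 0.000172 and 1.89e-05). LINC01268, an intergenic row with neither kind of exon, was at 1.9, 2.57 and 2.10 CPM in A4, 5.33, 6.14 and 7 in A7, 6.10, 6.82 and 6.12 in E4, 5.78, 5.54 and 5.83 in G8, and 4.98, 3.73 and 4.42 in mock, with A4 below every other library. TMPO-AS1, whose row holds an exon of the lamina gene TMPO, had an A4 minus A7 log2 difference of -0.88 (SE 0.16, edgeR adjusted p = 0.00309).

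Some members with coding exons were low in G8. DSG2-AS1, antisense to the desmosome gene DSG2, was at 20, 12.3 and 20.8 CPM in A4, 16.1, 20.2 and 16.8 in A7, 12.2, 11.4 and 13.3 in E4, 6.46, 8.56 and 7.61 in G8, and 18.1, 13.6 and 14.6 in mock. Every G8 library was below all others, by 1.23 (SE 0.20) on the log2 scale for A4 minus G8 and 1.24 (SE 0.19) for A7 minus G8 (edgeR adjusted p = 0.00088 and 0.00131). GRPEL2-AS1, antisense to a mitochondrial import gene, was at 14.6, 14.6 and 16.8 CPM in A4, 18.5, 15.3 and 16.9 in A7, 13.3, 12.6 and 13.2 in E4, 10, 8.89 and 10 in G8, and 16.1, 12.9 and 12.5 in mock, again with G8 below the rest. MIF-AS1, whose row holds the MIF coding sequence shown above, was at 31.7, 30.3 and 39.5 CPM in A4, 37.1, 38.5 and 48.5 in A7, 57.8, 60.1 and 58.5 in E4, 35, 43.6 and 43.1 in G8, and 46.4, 39.6 and 37 in mock. E4 was above all other libraries, and A4 minus E4 was -0.81 (SE 0.15) on the log2 scale (edgeR adjusted p = 0.00353).

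The pairs share libraries, so their calls are not independent. A4 minus A7 called 80 members (background 17.5%), 61 of them higher (background 10.1%) and 19 lower (background 7.36%). A4 minus E4 called 89 members (background 14.6%), 73 of them higher (background 8.56%) and 16 lower (background 6.07%). A4 minus G8 called 67 members (background 16.6%), 42 of them higher (background 10.5%) and 25 lower (background 6.08%). Without G8 libraries 1 and 2 that pair called 26 (background 6.19%). A7 minus G8 called 59 members (background 12.1%), 14 of them higher (background 6.62%) and 45 lower (background 5.43%). E4 minus G8 called 79 members (background 15.4%), 15 of them higher (background 8.34%) and 64 lower (background 7.09%). Those pairs called 15 (background 3.43%) and 24 (background 4.85%) of 531 members without the same libraries. Leaving out 1 library, A4 minus E4 called 54 of 455 without A4 library 2 (background 7.76%) and 59 of 462 without E4 library 3 (background 8.41%). A4 minus G8 called 43 of 455 without A4 library 2 (background 10.9%) and 40 of 463 without G8 library 2 (background 10.4%). A7 minus G8 called 39 of 456, 38 of 459 and 39 of 456 without A7 libraries 1, 2 and 3 (background 6.40%, 7.66% and 7.86%). E4 minus G8 called 49 of 456 without E4 library 2 (background 9.28%) and 51 of 462 without E4 library 3 (background 10.2%). Without G8 library 2 it called 52 of 463 (background 9.40%). The median log2 difference of the members was 0.18, 0.34, -0.01, -0.14 and -0.23 in these 5 pairs, in that order, where that of all features was near 0.

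The split of directions depended on the scaling. With library totals the median of all features itself shifted, to -0.29 in A4 minus A7, -0.19 in A4 minus E4, -0.20 in A4 minus G8, 0.12 in A7 minus E4 and 0.10 in A7 minus G8. The members called then were 36 higher and 46 lower in A4 minus A7, 44 and 21 in A4 minus E4, 22 and 30 in A4 minus G8, 13 and 23 in A7 minus G8, and 6 and 48 in E4 minus G8. Of all 10073 features, 508 were higher and 1355 lower in A4 minus A7, and 431 and 671 in A4 minus E4. In A4 minus G8 these were 673 and 737, in A7 minus G8 623 and 225, and in E4 minus G8 618 and 445. The pair differences given above for single members kept their direction under this scaling.

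A7 minus E4 gave the fewest calls. LINC01088 was the 1 member called of 419 (background 0.0993%, made up of 0.0397% higher and 0.0596% lower), with 33 members at an unadjusted p under 0.05 and 2 called by DESeq2. It was at 10.3, 12.2 and 9.68 CPM in A7 and 4.72, 4.12 and 5.59 in E4, and the libraries did not overlap. The log2 difference was 1.16 (SE 0.17, edgeR adjusted p = 0.0199), and the call was lost when A7 library 2 or 3 or E4 library 1 or 2 was left out (edgeR adjusted p of up to 0.145). LINC01088 also stood high in A4, at 11.1, 11.7 and 9.43 CPM, and low in G8, at 4.25, 5.03 and 5, with 7.73, 6.78 and 7.37 in mock.

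Each THP-1 group was also set against the libraries labelled mock, whose cell line the blood-cell miRNAs put in doubt, and these 4 comparisons share those 3 libraries. In each, 453 members were tested. A4 minus mock called 51 members (background 12.2%), 40 of them higher (background 8.46%) and 11 lower (background 3.78%). A7 minus mock called 38 members (background 6.63%), 11 of them higher (background 3.91%) and 27 lower (background 2.72%). E4 minus mock called 48 members (background 10%), 12 of them higher (background 6.24%) and 36 lower (background 3.77%). G8 minus mock called 36 members (background 8.3%), 24 of them higher (background 4.31%) and 12 lower (background 3.98%). Under library totals, where the median of all features moved to -0.49, -0.21, -0.32 and -0.29, 13 members were higher and 82 lower in A4, 4 and 32 in A7, 3 and 78 in E4, and 6 and 35 in G8. Of all 10570 features, 493 were higher and 2604 lower in A4, 183 and 358 in A7, 302 and 1011 in E4, and 120 and 888 in G8. The members' share called was 21.0%, 7.95%, 17.9% and 9.05% in that order, and the background 29.3%, 5.12%, 12.4% and 9.54%. Without G8 libraries 1 and 2, G8 minus mock called 9 of 543 members (background 2.7%). Leaving out 1 library, A4 minus mock called 33 of 480 without A4 library 1 (background 9.13%) and 25 of 478 without A4 library 2 (background 6.83%). It called 26 of 477 without mock library 2 (background 6.84%) and 27 of 476 without mock library 3 (background 7.57%). A7 minus mock called 18 of 477 without A7 library 1 (background 2.71%) and 23 of 477 without A7 library 3 (background 4.19%). It called 21 of 477 without mock library 2 (background 3.34%) and 18 of 476 without mock library 3 (background 3.24%). E4 minus mock called 28 of 484, 29 of 482 and 30 of 481 without E4 libraries 1, 2 and 3 (background 5.51%, 5.68% and 6.75%). It called 29 of 476 without mock library 3 (background 6.08%). G8 minus mock called 16 of 484 without G8 library 1 (background 4.74%) and 20 of 483 without G8 library 2 (background 4.95%). Without mock library 2 it called 15 of 477 (background 4.32%).

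LINC02223, an intergenic row on chromosome 5, was at 15.4, 16.8 and 16.1 CPM in A4, 7.07, 6.65 and 6.77 in A7, 5.55, 7.72 and 8.51 in E4, 9.18, 8.39 and 8.44 in G8, and 26.3, 21.1 and 27.1 in mock. Every mock library was above every THP-1 library. The log2 difference was -0.63 (SE 0.14) for A4 minus mock, -1.86 (SE 0.15) for A7 minus mock, -1.77 (SE 0.15) for E4 minus mock and -1.52 (SE 0.15) for G8 minus mock (edgeR adjusted p = 0.00857, 3.21e-06, 4.61e-06 and 1.57e-05). PAX6-AS1, antisense to the eye and brain transcription factor gene PAX6, went the other way, at 7.60, 13.9 and 8.21 CPM in A4, 13.6, 10.1 and 6.65 in A7, 12.6, 6.43 and 12.2 in E4, 8.5, 3.52 and 3.96 in G8, and 5.24, 1.72 and 1.70 in mock. Its libraries spread widely within groups, and the call of 1.81 (SE 0.45) on the log2 scale for A4 minus mock (edgeR adjusted p = 0.015) was lost without A4 library 2, mock library 2 or mock library 3 (edgeR adjusted p of up to 0.084).

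Lists of lncRNAs known in particular cells or processes held few members with enough counts to test among the THP-1 groups, too few to set their calls against the background of 27.4%. Of 15 myeloid members 3 were tested and none was called, and the same held for 1 tested of 16 lymphoid members, 2 of 13 from the HOX clusters and 2 of 6 linked to p53 and stress. The list of lncRNAs of embryonic, kidney and neural tissue, what HEK293T could carry, had 14 members and none with enough counts to test. Its summed level was 0.349 to 3.44 CPM over the THP-1 libraries and 0.191 to 1.13 CPM in mock, and GATA6-AS1, LIN28B-AS1, LINC01405 and MEG9 were at 0 in all of them. The myeloid sum was 14.7 to 22.1 CPM in the THP-1 libraries and 15.7 to 19.3 in mock.

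Among 9 members of the chromatin and imprinting list, 3 were tested and KCNQ1OT1 was called (edgeR adjusted p = 0.00324). KCNQ1OT1, the imprinted antisense transcript that silences neighbours of KCNQ1 on the paternal chromosome, was at 13.6, 15.9 and 15.9 CPM in A4, 9.07, 10.4 and 10.2 in A7, 10.7, 6.82 and 8.78 in E4, 14.6, 18.5 and 15.1 in G8, and 10.7, 11.1 and 10.4 in mock. A4 and G8 libraries lay above all A7 and E4 libraries. The KCNQ1OT1 row holds exon sequence of a protein-coding gene, so reads of the lncRNA and of that gene cannot be told apart. Of 7 members of a list of cytoplasmic and growth-linked lncRNAs 6 were tested and TMPO-AS1 was called (edgeR adjusted p = 0.00146).

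Members with the most counts, picked after their values were seen, moved less. OOEP-AS1, the row around RPL39P3, averaged 50.0 ± 0.84 CPM in A4, 31.3 ± 1.37 in A7, 33.4 ± 4.39 in E4, 54.3 ± 2.14 in G8 and 46.8 ± 7.65 in mock (SD, n = 3; edgeR adjusted p = 0.00083). LINC00333 averaged 49.7 ± 7.93 CPM in A4, 28.6 ± 0.82 in A7, 25.6 ± 3.40 in E4, 41.6 ± 5.64 in G8 and 39.9 ± 4.87 in mock (edgeR adjusted p = 0.00166). In both, A4 and G8 lay above A7 and E4. LINC02008 averaged 141 ± 24.7 CPM in A4, 108 ± 4.38 in A7, 104 ± 11 in E4, 94.4 ± 9.81 in G8 and 113 ± 9.07 in mock, and was not called (edgeR adjusted p = 0.0501).

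Shares of most members were higher plus PNK than minus PNK, as were those of most features. TUG1 was at 40.4 to 67.2 CPM of library total plus PNK and 0 to 0.992 minus PNK over the 15 libraries of each arm, and OIP5-AS1 at 68.9 to 169 plus PNK and 0.619 to 1.36 minus PNK. The arms did not overlap in either. BIRC6-AS1 had 332 counts plus PNK and 0 minus PNK, HCG4B 708 and 1, ARSD-AS1 501 and 2, LINC02315 460 and 3, and LINC00987 927 and 3, summed over 15 libraries each.

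In the fit with TMM factors, 400 of 513 members tested were called for plus minus minus PNK (background 87.5%), 359 of them higher (background 71.2%) and 41 lower (background 16.3%), with a median log2 difference of 2.20 against 2.49 over all features. TMM assumes that most features do not change, and with library totals those medians were 5.45 and 5.61. Then 507 members were called (background 98.2%), 500 higher and 7 lower, against 11121 and 925 of all 12261 features. A member entered these fits with enough counts in either arm. Among the THP-1 groups 419 members passed the filter plus PNK and 23 minus PNK, so most entered through the arm where they are high. That entry favours higher calls under both scalings. Without the filter and with TMM factors, 476 of 2441 members were called higher and 130 lower, against 11197 and 3309 of all 46058 features. Of 489 members with 100 or more counts, 12 had a higher share of the library total minus PNK.

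**Figure D5:**
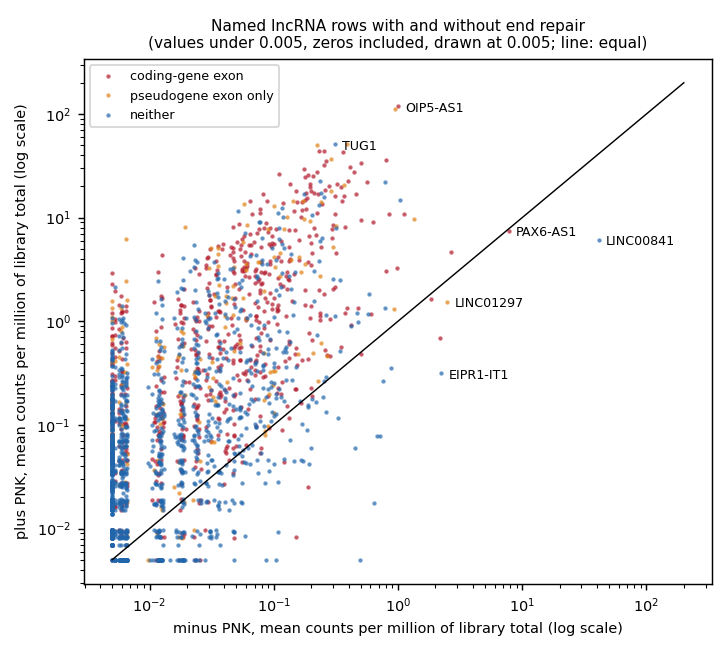
Mean CPM of library total plus PNK (vertical) against minus PNK (horizontal), both on log axes, for each named lncRNA with a count, coloured by what its row holds; the line marks equality and values under 0.005 are drawn there. Of the 489 members with 100 or more counts, 12 lie below the line, LINC00841, EIPR1-IT1 and LINC01297 among them. Members with a count only minus PNK are drawn at or below it.

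LINC00841 was the extreme of these. Its row (chr10:43909296-43969907) had 690 counts plus PNK and 6908 minus PNK, which is 6.08 CPM of library total plus PNK and 41.2 minus PNK. Nested rows over the first part of the span, the longest 31766 bases, held at most 5 of the plus PNK and 2 of the minus PNK counts, so its reads lie in the rest of the row, where it has neither a coding nor a pseudogene exon. The log2 difference plus minus minus PNK was -6.72 (SE 0.20, edgeR adjusted p = 8.31e-29) with TMM factors and -2.70 with library totals. EIPR1-IT1, an intronic transcript of EIPR1, had 0.315 CPM plus PNK and 2.23 minus PNK, and LINC01297, whose row lies on chromosome 22 while RefSeq has the symbol on chromosome 14, had 1.54 and 2.49. PAX6-AS1 had 7.44 CPM plus PNK and 7.82 minus PNK, and its call with TMM factors (log2 difference -4.19) was not made with library totals (-0.18, edgeR adjusted p = 0.249).

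Minus PNK, 23 members had enough counts to test among the THP-1 groups and 6 were called (background 27.6%). The test includes G8 libraries 1 and 2, which stood apart in the blood-cell miRNAs minus PNK. With both left out, G8 would have no spread of its own. Leaving out 1 library, 14 were called without G8 library 3, 6 of 29 without A7 library 3 (background 19.4%) and 4 of 30 without A4 library 3 (background 22.9%). Without any 1 of the other libraries 2 or 3 were called (background 10.8% to 20.2%). Without G8 library 3 the background was 59.8%, and the members' 14 of 29 (48.3%) lay below it. LINC01297 was at 15.7, 11.6 and 11.3 CPM in A4, 15.8, 11.8 and 15.5 in A7, 7.30, 5.84 and 4.95 in E4, 1.91, 0.887 and 1.72 in G8, and 12.4, 16.3 and 17.8 in mock (edgeR adjusted p = 0.00286 among the THP-1 groups). G8 was lowest in all 3 libraries and E4 lay between G8 and the rest. LINC00841 was at 125, 107 and 99.3 CPM in A4, 122, 137 and 144 in A7, 123, 124 and 137 in E4, 267, 263 and 184 in G8, and 184, 269 and 231 in mock, with every G8 library above those of the other THP-1 groups (edgeR adjusted p = 0.00623). EIPR1-IT1 averaged 6.57 ± 2.31 CPM in A4, 13.5 ± 1.56 in A7, 13.5 ± 1.11 in E4, 4.80 ± 1.09 in G8 and 5.62 ± 1.49 in mock (SD, n = 3; edgeR adjusted p = 0.0233), and this call was lost in 8 of 12 fits that left out 1 library, every E4 library among them (edgeR adjusted p of up to 0.0647, without A7 library 1). Plus PNK, LINC00841 was not called among the same groups (edgeR adjusted p = 0.379). The plus minus minus PNK difference varied between the 5 groups for 4 of 513 members, FRY-AS1, DIRC3, LINC01725 and TEX41 (edgeR adjusted p = 0.000261, 0.000912, 0.0102 and 0.0166), against a background of 1.62%.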

How the data were processed

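Small RNA libraries were analysed for 30 of 42 labelled samples. The deposited values are raw read counts per annotated row, with no normalization. Per the submitters' processing notes, Trim Galore, FastQC, Bowtie2 2.3.5.1, SAMtools 1.9, deepTools 3.2.1 and bedtools 2.28.0 were used with GRCh38; their settings, and the handling of strand and of reads with several alignments, are not given in the sources used here. A read is counted in each row it overlaps, so a table of 71325 rows was fitted: 17107 non-overlapping rows of other types, the 3198 named lncRNAs, and 51020 other lncRNA rows that overlap neither. Overlap meant at least 1 base. The members, the lists and the rules were chosen with earlier results of these data known.

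These counts went into the quasi-likelihood test of edgeR (version 4.0.16, under R 4.3.3) after filterByExpr, with TMM factors (Benjamini-Hochberg over all rows tested, threshold 0.05), in 1 fit each of 12 THP-1 libraries per arm, 15 plus PNK libraries and 30 libraries. The scripts were tested on simulated data. CPM plus PNK come from the 15-library fit and CPM minus PNK from the 30-library fit, both with TMM factors. Intervals and p-values cover the spread between libraries only. Alternatives were DESeq2 1.42.0, other scalings, no filter, a replicate block and left-out libraries. Named members are the 15 with the highest CPM per kb, the 15 called ones with the widest range between THP-1 group means, and, per comparison, up to 5 of the largest called rises and falls whose groups do not overlap, at or above the median level of tested members; for the minus PNK and interaction tests the 5 smallest p. Of the members, 2895 matched a RefSeq symbol and 2861 overlapped that gene. Replicate numbers were checked for pairing by the correlation of same-numbered libraries' deviations from their group means. Plus PNK, and between the arms, no 2 groups had all 3 correlations over 0.1. Minus PNK all 3 were over 0.1 for A4 with E4, A4 with G8 and E4 with G8 (0.107 to 0.692), but for A7 with the other groups they ran from -0.318 to 0.153, so the numbers were not taken as pairs.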

Additional observations from a re-analysis of the deposited data

Results flagged for a closer look

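Whether the plus minus minus PNK difference itself varies between A4, A7, E4, G8 and mock was tested in the 30-library fit. It did for 4 of 513 members tested (background 1.62%), and the cause was not tested. FRY-AS1, whose row holds an exon of FRY, had an edgeR adjusted p of 0.000261. It had 60, 39 and 30 counts plus PNK in A4, 13, 11 and 12 in A7, 16, 6 and 4 in E4, 34, 29 and 47 in G8, and 23, 32 and 41 in mock. Minus PNK it had 0 in every A4 and G8 library, 6, 2 and 2 in A7, 4, 5 and 4 in E4, and 2, 3 and 5 in mock. Mock overlapped G8 plus PNK but was not at 0 minus PNK.

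DIRC3 had an edgeR adjusted p of 0.000912, with 161 counts plus PNK in A4, 19 in A7, 13 in E4, 112 in G8 and 107 in mock, and 9, 7, 11, 0 and 4 counts minus PNK in the same order, each summed over 3 libraries. LINC01725 (edgeR adjusted p = 0.0102, and 0.0514 without E4 minus PNK library 2) had 127 counts plus PNK in A4, 62 in A7, 28 in E4, 80 in G8 and 56 in mock, and 5, 8, 12, 1 and 9 minus PNK. TEX41 (edgeR adjusted p = 0.0166) had 230 counts plus PNK in A4, 295 in A7, 197 in E4, 159 in G8 and 219 in mock, and 19, 85, 50, 17 and 56 minus PNK. The TEX41 call was lost without A4 minus PNK library 1 or 2 or A4 plus PNK library 2 (edgeR adjusted p of up to 0.0893), with library totals (edgeR adjusted p = 0.11) and with DESeq2 size factors (edgeR adjusted p = 0.307).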

How the results depend on the processing

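Members called were recomputed under each alternative. Without G8 libraries 1 and 2, where the lone G8 library is assumed to vary like the other groups, A4 minus G8 called 26, A7 minus G8 15, E4 minus G8 24 and G8 minus mock 9. With library totals A7 minus G8 called 36 of 419 (background 8.42%), A4 minus mock 95 of 453 (background 29.3%) and E4 minus mock 81 of 453 (background 12.4%). Without the low-count filter A7 minus E4 called 5 of 2208 (background 0.678%), end repair 606 of 2441 (background 31.5%) and the interaction 7 of 2441 (background 0.690%). By DESeq2 A7 minus E4 called 2 of 419 (background 0.764%) and the interaction 12 of 513 (background 4.59%). Members with at least 10 counts numbered 1168, against 453 past the filter. With library totals the end repair difference of NFYC-AS1 became 0.82, of STAU2-AS1 1.73 and of GHRLOS 2.07 on the log2 scale, against -3.19, -2.28 and -1.94; the cause was not tested.

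Leaving out 1 library, the test among THP-1 groups called 109 to 146 members plus PNK (background 20.9% to 31.9%) and 2 to 14 minus PNK (background 10.8% to 59.8%). The pairs called 55 to 83 (A4 minus A7, background 9.34% to 16.4%), 54 to 86 (A4 minus E4, background 7.76% to 13.0%) and 40 to 58 (A4 minus G8, background 10.4% to 18.2%). The others called 0 to 1 (A7 minus E4, background 0% to 0.0935%), 38 to 60 (A7 minus G8, background 6.40% to 14.5%) and 49 to 79 (E4 minus G8, background 9.28% to 16.9%). Against mock it was 25 to 45 (A4, background 6.83% to 11.4%) and 18 to 29 (A7, background 2.71% to 5.4%). E4 minus mock called 28 to 39 (background 5.51% to 8.5%) and G8 minus mock 15 to 44 (background 4.32% to 10.9%). End repair called 413 to 446 (background 83.4% to 86.1%) and the interaction 3 to 11 (background 0.737% to 4.76%). The 11 came without G8 minus PNK library 3 (1.99% of members, background 4.76%). Without A4 plus PNK library 3 the interaction called 7 (background 1.9%). The numbers used for a replicate block do not pair the plus PNK libraries. The minus PNK libraries deviate together in A4, E4 and G8 but not in A7. With this block 124 members were called among the THP-1 groups plus PNK (background 24.8%) and 6 minus PNK (background 20.4%). A4 minus A7 called 78 (background 15.7%), A7 minus G8 53 (background 10.98%) and end repair 382 (background 84.5%). The interaction called 5 of 513 members (0.975%, background 3.6%).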

Other observations

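Members that share a stretch of chromosome were set side by side after their values were seen, so no test is given for the stretches. On the short arm of chromosome 5, 7 of the members tested lie from LINC02223 to MRPS30-DT. LINC02100, LINC02223, LINC02241, NIPBL-DT and MRPS30-DT were called among the THP-1 groups (background 27.4%) and averaged highest in A4 of these groups. MRPS30-DT averaged 2.51 ± 0.68 CPM for A4, 0.537 ± 0.38 for A7, 0.665 ± 0.12 for E4 and 0.807 ± 0.19 for G8 (SD, n = 3; edgeR adjusted p = 0.00622). At these levels MRPS30-DT passed the count filter only through A4, where it is high, so its direction adds no support. LINC02228 and NNT-AS1, on the same arm, were not called (edgeR adjusted p = 0.680 and 0.0581), and NNT-AS1 averaged 13.8 ± 3.40 CPM in A4 and 18.4 ± 0.91 in A7.

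On the long arm of chromosome 8, LINC00976 (starting at base 128952879) and LINC00977 (starting at base 129216467) were both highest in G8. LINC00051, further along, was called too and averaged 1.12 ± 0.51 CPM for A4, 1.05 ± 0.20 for A7, 0.493 ± 0.17 for E4 and 2.15 ± 0.70 for G8 (edgeR adjusted p = 0.0157). It may have passed the count filter mainly through G8, where it is highest. PRNCR1 and WASHC5-AS1 on the same arm were not called (edgeR adjusted p = 0.0597 and 0.536).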
